A study of Mus musculus with 6 samples.

Results

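The 7 genes described here encode the cytosolic machinery of translation elongation, namely Eef1a1, Eef1a2, Eef1b2, Eef1d, Eef1g, Eef2 and Eef2k. They were found by gene symbol among the 18437 mRNAs listed in the data, and all 7 were present. Ribosome profiling (Ribo-seq), which sequences the mRNA fragments that translating ribosomes protect from nuclease, had been performed on heart, lung, kidney, brain, small intestine and colon of untreated wild-type (WT) C57BL/6J mice aged 4 weeks. There was 1 library per tissue, the number of mice behind each was not given in the sources used here, and no group differed by genotype or treatment. The values are RPKM, the reads on a coding sequence (CDS) scaled by its length and by the reads on all CDSs of the library, called ribosome density below.

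During elongation, eEF1A carries aminoacyl-tRNA to the ribosome as a complex with GTP. The eEF1B subunits encoded by Eef1b2, Eef1d and Eef1g recycle it by exchanging GDP for GTP. eEF2 moves the ribosome along the mRNA after each peptide bond, and the kinase eEF2K slows this step by phosphorylating eEF2. Mammals have a pair of eEF1A proteins. Eef1a1 is used by nearly all cells, whereas Eef1a2 takes over in muscle and in neurons after birth, and the wasting mouse, which lacks Eef1a2, loses muscle and motor neurons soon after weaning.

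The labels were compared with 3 markers for each tissue before any result was read from them. All 3 markers were highest under their own label for 2 tissues, heart and lung, and under another label for the other 4. Brain markers peaked under the label small intestine and small intestine markers under brain, while kidney markers peaked under colon and colon markers under kidney. Gfap, a marker of astrocytes, reached 33.3 RPKM under the label small intestine and had 0 reads in the other 5 libraries. Every library is therefore called by its label below, and no tissue is assigned to it. Reads on CDSs numbered 4504853 to 10635031 per library, between 11520 and 15028 mRNAs had reads, and the mRNA of Kri1 alone took from 0.400% to 22.1% of them. Among mRNAs with a mean of at least 100 reads, 0.731% to 5.18% had no read in a given library. Without replicates no test between tissues was possible. Intervals are exact 95% intervals of the counted reads. They cover counting error only, since 1 library per tissue gives no spread between animals or preparations. The reads carried no molecular identifiers, so copies made by amplification count as separate reads and the intervals may be too narrow.

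The paralogs were first compared in sequence, since footprints of near-identical mRNAs cannot be told apart. Eef1a1 lies at chr9:78384916-78396778 and Eef1a2 at chr2:180778581-180799838, both on the minus strand of GRCm39. The encoded proteins have 462 and 463 residues and were identical at 426 of 462 aligned residues (92.2%), whereas their CDSs were identical at 79.9% of 1386 aligned bases. Of the identical residues, 205 (48.1%) were written with a different codon. In 123 of these the codon ended in A or U in Eef1a1 and in G or C in Eef1a2, and in 36 it was the other way round. The share of codons ending in G or C (GC3) was 50.1% in Eef1a1, above 26.5% of the 18152 CDSs compared, and 71.8% in Eef1a2, above 88.1% of them. The windows below are CDS sequences of 29 nt, the typical length of a footprint, read 5′ to 3′ on the mRNA strand, with capitals at the bases that differ between the paralogs. The pair that opens the list begins at the start codon, with 3 differences, in exon 2 of either gene (chr9:78387908-78387936 and chr2:180797171-180797199).
Eef1a1: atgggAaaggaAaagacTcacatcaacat
Eef1a2: atgggCaaggaGaagacAcacatcaacat

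The next pair has the fewest differences, 2, of all windows that lie within 1 exon in both genes (exon 2, CDS bases 82 to 110, chr9:78387827-78387855 and chr2:180797090-180797118). It shows how alike the closest footprints are.
Eef1a1: atctacaaAtgtggtggAatcgacaagcg
Eef1a2: atctacaaGtgtggtggCatcgacaagcg

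The last pair has the most differences, 13, and lies in exon 6 (CDS bases 989 to 1017, chr9:78386572-78386600 and chr2:180791481-180791509).
Eef1a1: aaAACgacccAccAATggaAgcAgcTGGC
Eef1a2: aaGCTgacccGccTCAggaGgcTgcCCAG

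Across the 1358 aligned windows the median was 6 differences. A window differed by no more than 2 bases, the number of mismatches allowed in the alignment, in 41 cases (3.02%), and each window was closest to its own gene, since no window was identical in both. Against the mRNAs of 21594 protein-coding genes, no window of Eef1a1 or Eef1a2 matched any gene outside this pair within 2 mismatches. Windows of Eef1b2, Eef1g, Eef2 and Eef2k matched no other gene, and 6 of 1952 windows of Eef1d (0.307%) did.

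**Figure D1:**
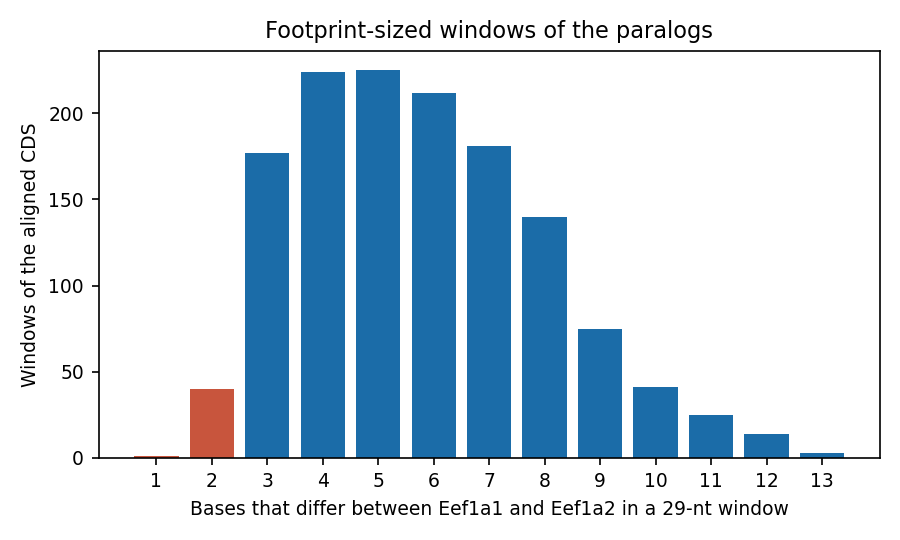
Number of bases that differ between the aligned Eef1a1 and Eef1a2 CDSs (x axis) against the number of 29-nt windows with that many differences (y axis), with windows of at most 2 differences in red. The differences range from 1 to 13 with a median of 6, and 41 of 1358 windows fall in the red bars.

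Eef1a1, the general carrier of aminoacyl-tRNA, was read in every library. Its density was 2538 RPKM under the label brain, 1555 under colon, 836 under heart, 2352 under kidney, 4908 under lung and 1019 under small intestine. The library labelled lung thus lay highest and that labelled heart lowest, 5.87-fold apart (interval 5.75 to 6.00). At rank 10 of all mRNAs with reads in the library labelled lung and rank 153 in that labelled heart, Eef1a1 was among the most densely read mRNAs throughout. Under RPKM, no 2 neighbours in the order of its 6 levels had a fold whose counting interval held 1. The order of brain and kidney depended on the scaling, however. With Kri1 left out of the totals, the library labelled kidney (3020 RPKM) lay above that labelled brain (2590).

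Eef1a2, the carrier of adult muscle and neurons, had 2 levels of high density and 4 of low density. Its density was 0.135 RPKM under the label brain, from 2 reads, 8.31 under colon, 1633 under heart, 10.7 under kidney, 8.01 under lung and 969 under small intestine. The libraries labelled heart and small intestine stood apart from the rest, and the lower of them was 90.3-fold (interval 75.1 to 110) above the next, that labelled kidney. The density in the library labelled heart was 1.69-fold (1.65 to 1.73) that in the library labelled small intestine. Among the 3 libraries with 8.01 to 10.7 RPKM, neither neighbouring pair differed beyond its counting interval, while the library labelled brain lay 59.2-fold below the lowest of them (15.9 to 496, with 2 reads against 86). Highest and lowest libraries were 12064-fold apart, but with 2 reads in the lowest the interval ran from 3339 to 99623.

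**Figure D2:**
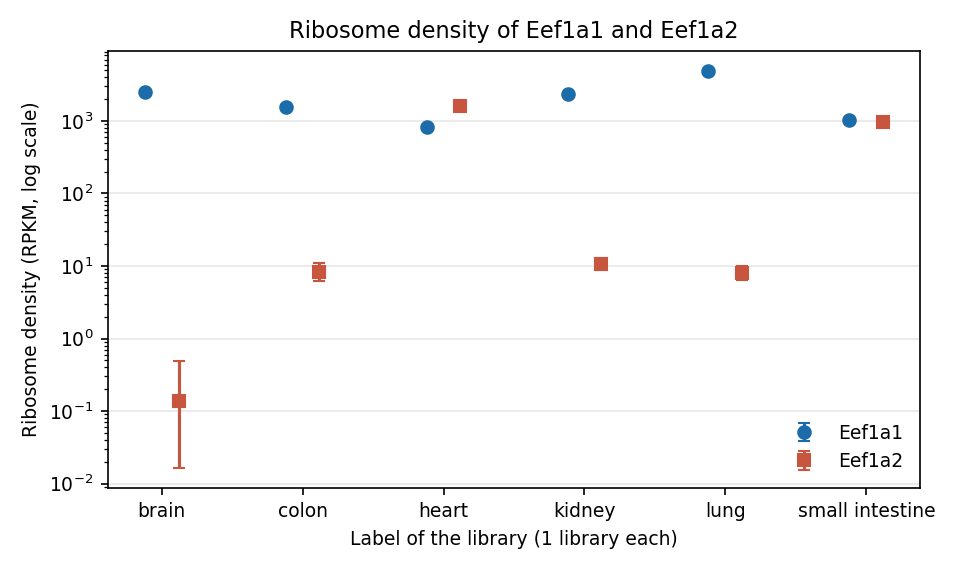
Ribosome density in RPKM (log scale) of Eef1a1 (blue circles) and Eef1a2 (red squares) in the 6 libraries, named by label, with exact 95% Poisson intervals of the reads as bars, most of them smaller than the points. Eef1a1 stays between 836 and 4908 RPKM, while Eef1a2 reaches 1633 and 969 in the libraries labelled heart and small intestine and is at most 10.7 in the other 4.

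The ratio of Eef1a2 to Eef1a1 compares both mRNAs within a library and does not depend on its total of reads. It was 1.95 (1.91 to 2.00) in the library labelled heart and 0.951 (0.925 to 0.977) in that labelled small intestine. In the others it was 0.00535 (0.00399 to 0.00702) under the label colon, 0.00456 (0.00376 to 0.00549) under kidney, 0.00163 (0.00131 to 0.00202) under lung and 5.34e-05 (6.46e-06 to 1.93e-04) under brain. Eef1a2 outweighed Eef1a1 in 1 of 6 libraries. It made up 66.2% of the density of both in the library labelled heart (65.6% to 66.7%), 48.7% in that labelled small intestine (48.1% to 49.4%) and at most 0.532% elsewhere. The ratio under the label heart was 2.06 times that under small intestine, which in turn was 178 times the next, that under colon. Between the 2 libraries whose markers matched their labels, heart and lung, the ratio differed by 1198-fold. In bulk tissue, fewer cells that translate an mRNA and less of it per cell cannot be told apart.

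The sum of both paralogs varied less than either. It was 2538 RPKM under the label brain, 1563 under colon, 2469 under heart, 2363 under kidney, 4916 under lung and 1988 under small intestine. These sums spanned 3.15-fold, from the library labelled colon to that labelled lung, and 1.62-fold without the library labelled lung. The libraries with most Eef1a2 had the lowest Eef1a1 and a sum within the range of the other 4.

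**Figure D3:**
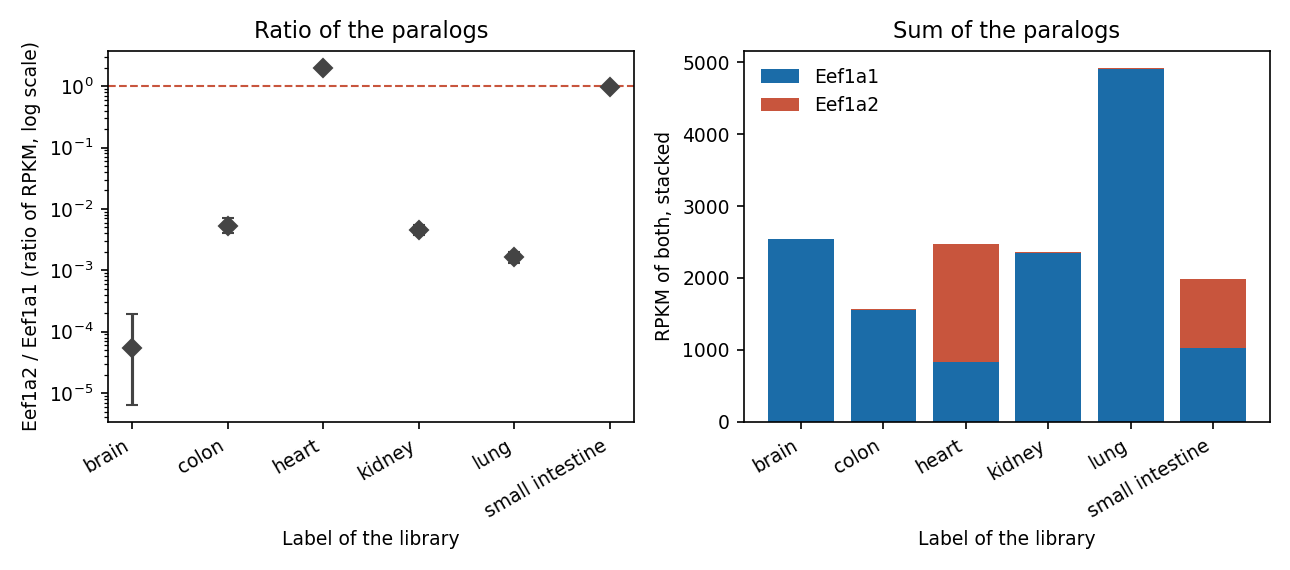
Left, ratio of Eef1a2 to Eef1a1 density on a log scale with exact 95% intervals, the dashed line marking equal density. Right, RPKM of Eef1a1 (blue) and Eef1a2 (red) stacked. The ratio is 1.95 under the label heart, 0.951 under small intestine and at most 0.00535 elsewhere, while the stacked sums lie between 1563 and 4916 RPKM.

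Markers of the cells known for Eef1a2 were set beside it. The density summed over 5 markers of cardiac muscle cells (Myh6, Tnnt2, Tnni3, Actc1 and Ryr2) was 54530 RPKM in the library labelled heart and from 0.0241% to 0.800% of that in the other 5, where all 5 markers had reads. The sum of 6 neuron markers (Snap25, Syt1, Stmn2, Map2, Rbfox3 and Elavl4) was 3959 RPKM under the label small intestine and from 0.124% to 2.96% of that in the others. Rbfox3 and Elavl4 were at 0 reads in 4 of those 5 and had reads under the label kidney. Each of the libraries with high Eef1a2 thus carried 1 of these marker sets and had the other at no more than 0.253%.

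The low levels of Eef1a2 were set beside the traces of these markers. Relative to the library labelled heart, Eef1a2 stood at 0.509% under the label colon, 0.657% under kidney, 0.490% under lung and 0.00829% under brain. The cardiac markers stood at 0.673%, 0.123%, 0.800% and 0.0241% of their highest level in these same libraries. Relative to the library labelled small intestine, Eef1a2 stood at 0.858%, 1.11%, 0.826% and 0.0140%, and the neuron markers at 0.124%, 1.29%, 2.96% and 0.554%. In the library labelled lung, most of the neuron sum was Stmn2, with 112 RPKM of a sum of 117. Relative to its peak, the cardiac sum stood higher than Eef1a2 under the labels colon, lung and brain and lower under kidney. The neuron sum stood higher under kidney, lung and brain and lower under colon. Single cardiac markers under the label colon ranged from 0.481% (Tnni3) to 3.82% (Actc1) of their highest level, with Tnnt2 at 0.504%. How much of the Eef1a2 read in these 4 libraries comes from the tissue itself was not tested. Of the markers of enteric neurons and endocrine cells, Chgb, a granule protein of both, had 4567 RPKM under the label small intestine, 1224 under kidney, 664 under brain and 1.97 to 8.84 elsewhere. The 6 skeletal muscle markers summed to 2312 RPKM under the label heart, of which Ckm, also a gene of the heart, held 2225, and to 9.29 to 44.7 elsewhere. Acta1 (76.9 RPKM) and Myh1 (8.18) were also highest under the label heart, whereas Mylpf (21.4), Tnnt3 (4.28) and Myh4 (1.36) were highest under lung.

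**Figure D4:**
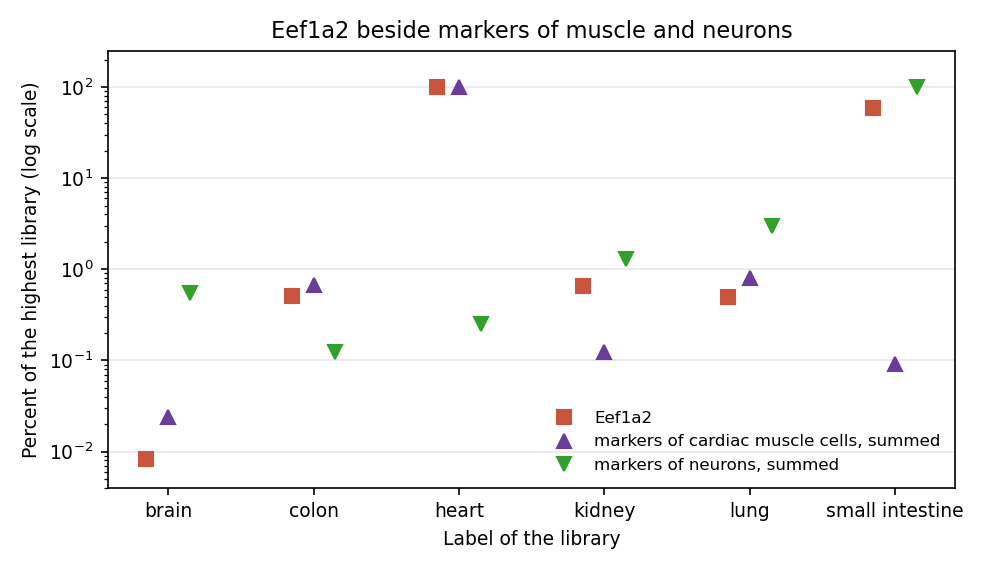
Density of Eef1a2 (red squares), of 5 summed cardiac muscle markers (purple triangles) and of 6 summed neuron markers (green triangles), each as a percent of its highest library on a log scale, for the 6 libraries by label. Eef1a2 is high in both libraries where 1 of the marker sets peaks, at 100% and 59.3%, and below 1% in the other 4.

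The subunits of the exchange factor were each read at lower density than the summed carrier in all 6 libraries. Under RPKM, Eef1b2 and Eef1g spanned 1.82-fold and 2.01-fold, and Eef1d spanned 5.52-fold. Eef1b2 encodes the alpha subunit, which catalyses the exchange, at chr1:63215940-63219645 on the plus strand. It had 68.0 RPKM under the label brain, 59.9 under colon, 103 under heart, 77.2 under kidney, 78.0 under lung and 109 under small intestine. Its span was the smallest of the 7 genes, and 4 of its 5 neighbouring pairs were within counting error of each other. Under RPKM, the highest pair, the libraries labelled small intestine and heart, stood 1.33-fold (1.17 to 1.51) above the next, counted from the lower of them. That gap depended on the scaling. With Kri1 left out of the totals, the library labelled heart had 104 RPKM and that labelled kidney, then the next, 99.1.

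Eef1g encodes the gamma subunit, the scaffold of the complex, at chr19:8944369-8955843 on the plus strand. Its density was 193 RPKM under the label brain, 273 under colon, 279 under heart, 159 under kidney, 164 under lung and 321 under small intestine. It was highest under the label small intestine and lowest under kidney, 2.01-fold apart, with the lowest pair not differing beyond counting error. Where the totals left out Kri1, or under TPM, which gives the densities of every library the same sum, or under size factors, which align the libraries on the median mRNA, the library labelled lung was lowest instead. With size factors the span was 3.11-fold, with 117 under lung and 178 under kidney.

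Eef1d encodes the delta subunit, a further exchange factor, at chr15:75766054-75782564 on the minus strand. Its density was 3.89 RPKM under the label brain, 9.31 under colon, 21.5 under heart, 14.5 under kidney, 10.3 under lung and 16.3 under small intestine, from 82 to 348 reads. The library labelled heart was highest and that labelled brain lowest, 5.52-fold apart (4.32 to 7.10). The data use the longest CDS, of 1980 nt, whereas a shorter annotated isoform has a CDS of 843 nt. If all reads belonged to the short isoform, every Eef1d density would be higher in the same proportion, with the order of the libraries kept. Which isoform was read was not tested.

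Within the complex, the ratios of subunits moved between libraries. Eef1b2 stood at 0.219 of Eef1g under the label colon, the lowest, and at 0.484 under kidney, the highest. Eef1d stood at 0.0202 of Eef1g under the label brain and at 0.0911 under kidney, with intervals of 0.0160 to 0.0251 and 0.0787 to 0.105. The summed carrier was 5.73 times Eef1g under the label colon, 6.19 times under small intestine, 8.85 times under heart, 13.1 times under brain, 14.8 times under kidney and 30.0 times under lung. The carrier was thus read more densely than Eef1g in all 6 libraries, by a factor that itself spanned 5.23-fold.

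Eef2, the translocase, lies at chr10:81012465-81018348 on the plus strand and had the highest GC3 share of the 7 genes, 73.1%. Its density was 133 RPKM under the label brain, 62.1 under colon, 148 under heart, 108 under kidney, 142 under lung and 100.1 under small intestine. It was lowest under the label colon and highest under heart, 2.39-fold apart (2.20 to 2.59), although under RPKM heart and lung did not differ beyond counting error. TPM put lung highest, and size factors put heart 1.62-fold above lung. The summed carrier was 16.7 to 34.5 times Eef2, lowest under the label heart and highest under lung.

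Eef2k, the kinase that restrains eEF2, lies at chr7:120441877-120506674 on the plus strand. Its density was 13.3 RPKM under the label brain, 2.66 under colon, 4.05 under heart, 11.8 under kidney, 17.3 under lung and 4.88 under small intestine, from 26 to 307 reads. The levels fell into a higher set of 3 libraries, labelled lung, brain and kidney, and a lower set, labelled small intestine, heart and colon, with a gap of 2.41-fold (1.85 to 3.17) between them. Within the lower set no neighbours differed beyond counting error. Size factors put the library labelled kidney highest in place of lung.

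The kinase was also set against its substrate. The ratio of Eef2k to Eef2 was 0.0999 (0.0886 to 0.112) under the label brain, 0.109 (0.0933 to 0.126) under kidney and 0.121 (0.107 to 0.137) under lung. It was 0.0428 (0.0278 to 0.0632) under colon, 0.0488 (0.0385 to 0.0609) under small intestine and 0.0273 (0.0213 to 0.0345) under heart. All of the former intervals lay above all of the latter. The libraries with high Eef1a2, labelled heart and small intestine, were both in the lower set, together with that labelled colon, where Eef1a2 was low.

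To place the genes among all mRNAs, each library was set against the median of the other 5. Under the label heart, Eef1a2 and Eef1d were at least 2-fold higher, as were 20.1% of the 7528 mRNAs with a mean of at least 100 reads, and Eef1a1 and Eef2k were at least 2-fold lower, as were 29.5%. Under the label small intestine, Eef1a2 was higher (23.7% of mRNAs) and Eef1a1 and Eef2k were lower (30.8%). Under the label lung, Eef1a1 and Eef2k were higher (35.1%) and none of the 7 was lower (18.1%). Under the label brain, Eef2k was higher (26.2%) and Eef1a2 and Eef1d were lower (24.2%). Under the label colon none was higher (24.9%) and Eef2 and Eef2k were lower (20.6%), and under the label kidney Eef2k was higher (18.9%) and none was lower (23.4%). In all, 7 of 42 values were higher and 8 were lower, and Eef1b2 and Eef1g were in no such set. With size factors 9 values were higher (23.6% of all values) and 11 lower (23.7%), Eef1d and Eef1g being added as higher under the label small intestine and Eef1a2, Eef1d and Eef1g as lower under lung.

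**Figure D5:**
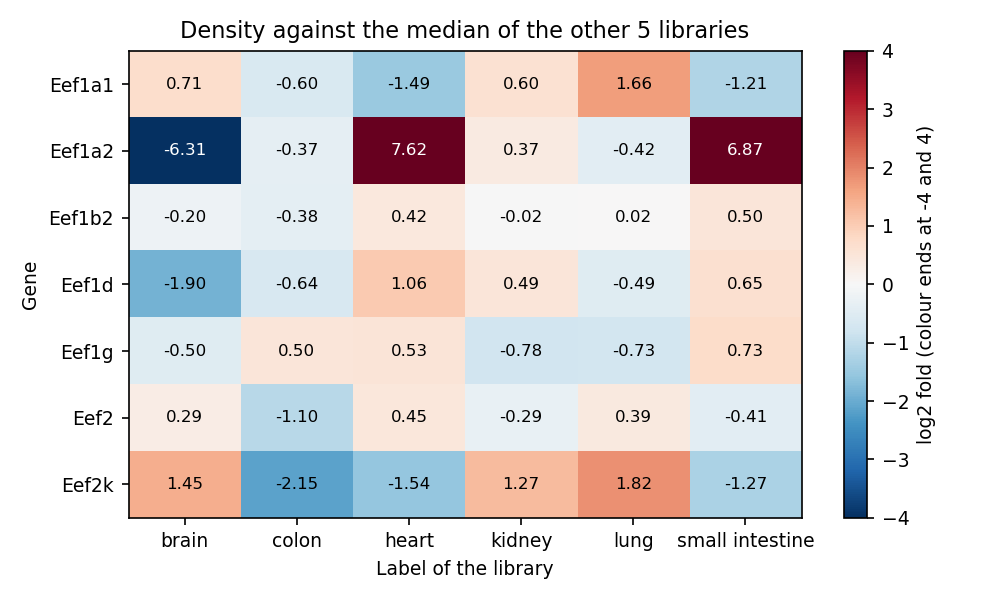
Log2 fold of each gene (rows) in each library (columns, by label) over the median of the other 5 libraries, with the value written in each cell and the colours saturating at the ends of the bar. Eef1a2 holds the extreme cells, 7.62 under the label heart, 6.87 under small intestine and -6.31 under brain, while Eef1b2 stays between -0.38 and 0.50.

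The fold from lowest to highest library gave the same picture. It was over 4 for 4 of the 7 genes (Eef1a1, Eef1a2, Eef1d and Eef2k), against 77.9% of the 7528 mRNAs, and its median was 5.52 for the 7 genes and 10.2 for those mRNAs. Eef1a2 had a larger span than 99.7% of these mRNAs, whereas Eef1b2 exceeded 1.12%, Eef1g 2.22% and Eef2 5.46% of them. Eef1d, Eef1a1 and Eef2k exceeded 33.5%, 35.4% and 38.1%. Apart from Eef1a2, then, the spans of these genes were below the median of all mRNAs. With median-of-ratios size factors, which shift the library labelled lung by -0.48 on the log2 scale and the others by -0.17 to 0.19, the span of Eef1a1 fell from 5.87 to 3.78.

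Restricted to the libraries whose markers matched their labels, the comparison of heart with lung kept the contrast of the paralogs. Eef1a1 had 0.170 times (0.167 to 0.174) and Eef1a2 204 times (165 to 255) the density under the label heart that it had under lung. Eef2k stood at 0.235 times (0.179 to 0.305), Eef1d at 2.08 times (1.72 to 2.53) and Eef1g at 1.70 times (1.60 to 1.81). Eef1b2 stood at 1.33 times (1.17 to 1.51), and for Eef2, at 1.04 times, the interval of 0.989 to 1.10 held 1. With size factors each of these folds was 1.55 times as large, which put Eef2 at 1.62 times, Eef1b2 at 2.06 times, Eef1a1 at 0.265 times and Eef2k at 0.365 times.

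The distribution of Eef1a2 was set beside those of other mRNAs. The 2 highest libraries were those labelled heart and small intestine for 507 of the 7528 mRNAs (6.73%). The shares for other pairs of libraries were not counted, so this share does not tell whether the pair is rare. Among the 507, with 0 reads set to 3, Eef1a2 had the second largest fold of the lower of both over the next library, 90.3. Cntn2, a neuronal adhesion protein, was first at 104. By Pearson's r of log2(RPKM + 1) over the 6 libraries, the 5 mRNAs most like Eef1a2 were Klhdc2 (0.987), Ank2 (0.983), Mff (0.978), Rdh14 (0.974) and Sgcb (0.973), and 78 mRNAs (1.04%) had r over 0.9. None of the 5 was among the closest by Spearman's rho and 3 remained among the 5 closest with a pseudocount of 0.1, so the names depend on the measure. Ank2 encodes an ankyrin of heart and neurons, Mff a receptor for mitochondrial fission and Sgcb a sarcoglycan of muscle. Sgcb, for example, had 398 RPKM under the label heart, 177 under small intestine and 3.92 to 32.2 elsewhere.

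Eef1a1 was followed by another set. The 5 mRNAs most like it were Necap2 (r of 0.986), Gtf3c5 (0.983), Sgpl1 (0.981), Set (0.979) and Aftph (0.974), and 149 mRNAs (1.98%) had r over 0.9. Set, which encodes a histone chaperone and phosphatase inhibitor, ranged from 98.2 RPKM under the label small intestine to 286 under lung. Among the other elongation factors, r with Eef1a1 was 0.84 for Eef2k and -0.87 for Eef1g, and r with Eef1a2 was 0.89 for Eef1b2 and 0.86 for Eef1d. These coefficients rest on 6 libraries that share no replicates and describe the libraries only.

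The genes that modify or assist elongation were counted in 6 lists of 34 genes, all of them listed, of which 15 had a mean of at least 100 reads. Of these 15, 12 spanned over 4-fold (80%), near the 77.9% of all mRNAs, with a median span of 5.35. Of the 13 enzymes that methylate eEF1A or eEF2 or build the diphthamide of eEF2, 2 passed the count minimum. Eef2kmt, which methylates eEF2, had 58.8 RPKM under the label brain and 0.911 under small intestine, from 7 reads. Eef1akmt1, which methylates eEF1A, ranged from 14.9 under the label kidney to 77.1 under heart. Eef1akmt3, named after its values were seen, had no reads in any library.

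Vars1, the valyl-tRNA synthetase that binds the exchange complex, had 48.0 RPKM under the label brain, 40.1 under lung and 24.1 under kidney, against 7.87 to 10.2 in the others. These were the same 3 libraries that formed the higher set of Eef2k. Eif5a, which helps ribosomes through difficult stretches, spanned 3.01-fold, from 28.9 under small intestine to 87.0 under heart. Of 7 termination and rescue factors that passed the minimum, 5 spanned over 4-fold, against 77.9% of all mRNAs that passed it. Gspt1, the GTPase of termination, moved most, from 9.26 under the label kidney to 76.3 under lung, and Gtpbp2, a GTPase linked to stalled ribosomes, least, at 2.59-fold. Neither factor of selenocysteine incorporation passed the minimum, and Eefsec, its dedicated elongation factor, was at most 6.66 RPKM and Secisbp2, which binds the selenocysteine element, at most 6.48.

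Mitochondria have elongation factors of their own, and all 4 that passed the minimum were at least 2-fold higher under the label heart than the median of the other 5 libraries, as were 20.1% of all mRNAs. Under the label colon 3 of the 4 were so, as were 24.9% of all mRNAs. The minimum is a mean over all libraries, and Tsfm passed it only with its reads under the label heart counted. The count under that label thus includes a gene admitted through its level there. Tufm, the mitochondrial counterpart of eEF1A, had 167 RPKM under the label heart, 114 under colon and 31.3 to 46.5 elsewhere. Tsfm, its exchange factor, had 53.9 under heart and 0.0967 under brain, from 1 read. Gfm1, the counterpart of eEF2, had 65.0 under heart and 8.24 to 22.9 elsewhere. Gfm2, which acts in ribosome recycling, was highest under colon, at 30.6 against 16.7 under heart. Cytosolic Eef2 was 1.37 times the median of the other libraries under the label heart.

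Other paralog pairs that differ between tissues were placed beside Eef1a2 and Eef1a1. Rpl3l, a ribosomal protein of striated muscle, stood at 1.95 of Rpl3 under the label heart and at 0.00193 under small intestine, from 1 read. Ckm over Ckb was 68.2, Eno3 over Eno1 21.1 and Cox6a2 over Cox6a1 12.5 under the label heart. Under small intestine these were 0.00528, 0.00380 and 0.0384, from 18 reads of Ckm, 5 of Eno3 and 17 of Cox6a2. These muscle pairs were highest under the label heart, 1 of the libraries with high Eef1a2. Under the label lung, where Eef1a2 was low, Cox6a2 over Cox6a1 was 1.37 and Eno3 over Eno1 0.930. The latter came from 40 reads of Eno3 (3.97 RPKM) and 43 of Eno1. Eno1 was at 4.27 RPKM under the label lung, against 45.0 to 266 in the other libraries. Ckm over Ckb was 0.343 under the label lung, and Rpl3l had 0 reads there. The neuronal enolase was highest in the other library with high Eef1a2, with Eno2 over Eno1 at 0.933 under the label small intestine, against 0.0167 under heart. Slc25a4 over Slc25a5, a pair of ATP carriers, was 9.80 under heart, 1.34 under small intestine and 0.0518 to 0.351 elsewhere, so its highest libraries were those of the Eef1a2 ratio.

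Among pairs of translation factors the order differed. Gspt2 over Gspt1 was 0.775 under the label small intestine and 0.0375 to 0.114 elsewhere. Eif4a2 over Eif4a1, the helicases of initiation, was 10.5 under colon, 4.37 under small intestine, 3.65 under heart, 0.831 under kidney and 0.820 under brain, with lung between heart and kidney. Eif5a2 stayed at or below 0.128 of Eif5a. Of the pairs named here, Eef1a2 over Eef1a1 and Slc25a4 over Slc25a5 had the library labelled heart highest and that labelled small intestine next.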

How the data were processed

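Ribo-seq libraries of 6 mouse tissues were used, 1 per tissue, grouped by the labels. The authors deposited 1 RPKM value per mRNA and library. The Methods describe the processing of the macrophage libraries, and the tissues were assumed to be treated alike. Reads were trimmed with Cutadapt, discarded below 15 nt and aligned by STAR to 1 mRNA per gene, that of the longest CDS (Ensembl GRCm39 release 107), leaving out multi-mapped reads and those with over 2 mismatches. RPKM times CDS length gave whole reads for 100% of values (tolerance 0.01). Tool versions were not given in the sources used here.

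Symbols, coordinates and sequences came from GRCm39 with GENCODE release M39, a later annotation. The file's transcript of Eef1d was replaced by another with the same CDS length. Poisson and Clopper-Pearson 95% intervals, a floor of 3 reads for mRNAs at 0, and a minimum mean of 100 reads for counts over all mRNAs were used, with no p-value. Windows were aligned with bwa 0.7.19 and proteins with Biopython 1.88. Python 3.11.15, numpy 2.4.6, scipy 1.17.1 and pandas 2.3.3 were used. Recovery of reads and calls was tested on simulated data.

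The genes and lists were chosen with earlier results of these data known. Named were the 7 genes, the 5 mRNAs most like each paralog, the highest and lowest span in each list, and fixed paralog pairs and markers. Of the latter, 1 pair and 1 marker are not reported here. Scaling, filters, folds, CDS length and pseudocount were varied, and each library was left out in turn, which was added after seeing the data.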

Additional observations from a re-analysis of the deposited data

How the results depend on the processing

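The ratio of Eef1a2 to Eef1a1 stayed within its interval in all 6 libraries for reads in place of RPKM and with 0.5 reads added, and in 5 of 6 after thinning to the lowest total. In the library labelled brain thinning left 0 reads of Eef1a2 and a ratio of 0. The count of genes spanning over 4-fold, 4 of 7, was 3 with size factors (75.2% of mRNAs). It was also 3 without the library labelled brain (72.7%) or lung (70.5%). At 8-fold it was 1 (55.8%), and in the other settings it was 4 (68.9% to 84.1%). Of 42 values, those higher than the other libraries numbered 11 at 1.5-fold (34.1% of all mRNA values) and 4 at 3-fold (15.8%) in place of 7, and those lower 12 (33.8%) and 3 (15.5%) in place of 8. With size factors they numbered 9 and 11. Without the count minimum, 29 of 33 listed pathway genes with reads spanned over 4-fold, in place of 12 of 15, against 84.1% of 17134 mRNAs. Of the 5 mRNAs most like Eef1a2, 0 were among the 9 tied at or above the fifth by Spearman's rho and 3 remained with a pseudocount of 0.1. With the short CDS of Eef1d, its ratio to Eef1g was 0.0474 and 0.0801 under the labels brain and colon, 0.181 and 0.214 under heart and kidney, and 0.148 and 0.119 under lung and small intestine. Other scalings left the highest and lowest library of Eef1a1, Eef1a2, Eef1b2 and Eef1d in place, but not every step between them. For Eef1a1, kidney lay above brain without Kri1, under TPM (3283 against 2955) and with size factors (2624 against 2366). Under TPM, Eef1b2 was at 108 under the label kidney and likewise at 108 under heart. No paired analysis was possible because each tissue had 1 library. Depth limits the level of Eef1a2 under the label brain, which rests on 2 reads.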
